A study of Mus musculus with 6 samples.

Results

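The granins Chga (chromogranin A) and Chgb (chromogranin B) and the further endocrine secretory genes Aplp1, Syt7, Krt7 and Sox4 were followed across the epithelium of the mouse small intestine. They were chosen by name, with earlier results of these data known, and all 6 were among the 5674 genes present in both of the deposited tables. The assay was MARS-seq: cells are sorted one by one into wells, and every captured mRNA gets a barcode of its own at the 3′ end, the unique molecular identifier (UMI). The samples, of separate mice within a region, were anterior jejunum (3 mice) and posterior jejunum (the same 3 mice), the third and the 7th of 12 equal pieces of the small intestine. All mice were 120 days old and of mixed CD-1:C57BL/6 background; the labels give no genotype, treatment or sex. Villus and crypt cells were mixed 1:1 and living EpCAM-positive cells were sorted, so every sample holds epithelium only by its gate. The series title concerns enteroendocrine differentiation and ID2, a protein that binds E proteins and keeps them from DNA.

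Enteroendocrine cells (EECs) are scattered hormone-producing cells of the gut lining. They store peptide hormones and, in enterochromaffin cells, serotonin in dense-core granules that are released when calcium enters the cell. Granins are acidic proteins that help to form these granules and are released with the hormone, and chromogranin A is the classical histological marker of gut endocrine cells. Synaptotagmin-7, the product of Syt7, is a calcium sensor of granule and lysosome fusion. Aplp1 encodes a membrane protein of the amyloid precursor protein family, Krt7 an intermediate filament keratin of simple epithelia, and Sox4 a transcription factor active in progenitors, including those of the endocrine lineage.

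Chga lies on chromosome 12 (102554969 to 102565028, plus strand) and Chgb on chromosome 2 (132781278 to 132795079, plus strand) of GRCm38. Aplp1 lies on chromosome 7 (30434982 to 30445535, minus strand), Syt7 on chromosome 19 (10389090 to 10453180, plus strand), Krt7 on chromosome 15 (101411043 to 101430313, plus strand) and Sox4 on chromosome 13 (28948919 to 28953713, minus strand). The RefSeq promoter table (GRCm38.p6) held 5 of the 6 genes, all but Syt7. The 250 bases before the RefSeq start were searched on both strands for TGACGTNA, a form of the cyclic AMP response element, and for CANNTG, the E-box read by basic helix-loop-helix factors. The first was found in Chga (44 bases before the start) and in Chgb (72 bases before it) and in none of Aplp1, Krt7 and Sox4; of 32851 promoter windows of this length, 2.52% held it. The full palindrome TGACGTCA, present in Chgb, occurred in 1.55% of windows. Chga had 3 E-boxes (191, 179 and 116 bases before the start) and Chgb, Aplp1, Krt7 and Sox4 had 1 each, while 66.2% of all windows held at least 1. These letter matches are descriptions and were not measured as binding sites.

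The granin promoters are shown because only these members held the TGACGTNA element. In each 30-base stretch the capitals mark the TGACGTNA match; the Chga stretch is chr12:102554886-102554915 and the Chgb stretch chr2:132781559-132781588, both read on the plus strand 5′ to 3′. The Chgb stretch lies within the GENCODE gene span, which starts further upstream than the RefSeq start.
Chga: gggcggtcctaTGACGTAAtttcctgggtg
Chgb: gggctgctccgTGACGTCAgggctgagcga

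The whole 250-base Chga window, chr12:102554691-102554940 on the plus strand, has its 3 E-boxes and the same element in capitals.
Chga promoter: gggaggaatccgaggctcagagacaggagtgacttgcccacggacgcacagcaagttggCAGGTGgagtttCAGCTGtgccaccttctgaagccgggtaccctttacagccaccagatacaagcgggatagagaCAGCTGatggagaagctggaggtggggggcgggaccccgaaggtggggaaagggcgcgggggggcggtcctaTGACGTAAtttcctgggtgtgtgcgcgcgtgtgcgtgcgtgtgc

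The tables held 2043 cells, 198 to 568 per sample, with 1640578 to 3157105 UMIs per sample and a median of 2766 to 8689.5 UMIs per cell. Epcam UMIs were found in 69.9% to 89.7% of the cells of each sample. Cells were clustered without the 6 genes. The cluster called EEC-like held 117 cells, named from 5 of 5 measured markers that lay above the median cluster. Of these 5 markers, 4 were the hormone genes Sct, Cck, Gip and Nts. It held 61, 7 and 6 anterior cells of mice 1, 2 and 3 and 31, 8 and 4 posterior ones. EEC-like cells were 10.7%, 3.54% and 2.29% of the anterior and 6.07%, 2.86% and 1.79% of the posterior cells of mice 1, 2 and 3, so mouse 1 supplied most of the class. The summed level of the enteroendocrine marker list in these cells was 1627, 1811 and 1294 UMIs per 10000 UMIs of the cell (CP10K) in the anterior and 659, 1166 and 1723 CP10K in the posterior samples. Outside them it was 2.00 to 40.5 CP10K in all but 1 of the class and sample points compared. The exception was the crypt progenitor-like cells of anterior mouse 2, at 309 CP10K, of which the somatostatin gene Sst made up 275. The tables hold 16 and 6 of the 33 listed markers. Of the marker lists of T cells, B or plasma cells, myeloid and stromal cells, the tables hold 0 to 3 genes each. The 3 B or plasma cell markers of the anterior table summed to 8.63 CP10K in EEC-like, 102 CP10K in crypt progenitor-like, 20.1 CP10K in enterocyte-like and 9.36 CP10K in goblet-like cells of mouse 1, and to at most 0.0502 CP10K in these classes of mice 2 and 3. Without anterior mouse 1 all 6 genes were still called higher in anterior EEC-like cells in the comparison of classes described further on. The deposited plate table gives each well a cell marker entry of pos or neg without naming the marker; 42 anterior and 20 posterior EEC-like cells came from pos wells and 32 and 23 from neg wells.

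Both granins were abundant in EEC-like cells and low in enterocyte-like, crypt progenitor-like and goblet-like cells. In Paneth-like cells Chga stood at 1.17 to 7.00 CP10K in the anterior and 0 to 1.86 in the posterior samples, and Chgb at 3.38 to 17.95 and 0 to 5.87. These cells were shallow (cluster median 920.5 UMIs, 69 of 103 anterior ones under 1000), which raises the CP10K of 1 UMI. Without regard to depth, a Chga UMI was found in 17 of these 103, against 71 of 203 anterior enterocyte-like cells, and a Chgb UMI in 27 against 101. At an equal depth of 1000 UMIs the order was reversed: Chga was found in 4 of 34 Paneth-like against 7 of 203 enterocyte-like anterior cells, and Chgb in 6 against 19. In the posterior samples Chga was found in 0 of 22 against 9 of 245 and Chgb in 4 against 5. The origin of these UMIs was not tested. Chga averaged 135 ± 57.5 CP10K in anterior EEC-like cells (SD, n = 3), with 76.4, 139 and 191 CP10K in mice 1, 2 and 3. In posterior EEC-like cells Chga averaged 118 ± 29.2 CP10K (SD, n = 3), with 123, 144 and 86.1 CP10K. In enterocyte-like, crypt progenitor-like and goblet-like cells the level of Chga was between 0.0953 and 1.04 CP10K in all 18 class and sample points. The groups did not overlap: the lowest EEC-like sample was above the highest sample of any other class, the Paneth-like cells of anterior mouse 1 at 7.00 CP10K. How many of all genes separated in this way is not given here. UMIs are counted at the 3′ end and not divided by transcript length.

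Chgb followed the same pattern. It averaged 303 ± 104 CP10K in anterior EEC-like cells (184, 346 and 378 CP10K) and 295 ± 104 CP10K in posterior ones (232, 415 and 239 CP10K; SD, n = 3 each). Elsewhere the highest levels of Chgb were 17.95 CP10K in Paneth-like cells of anterior mouse 1 and 5.87 CP10K in those of posterior mouse 1, and enterocyte-like cells lay between 0.183 and 1.57 CP10K. EEC-like cells were 7.20% of the anterior and 4.24% of the posterior cells and held 88.0% and 89.2% of all Chga UMIs and 88.7% and 93.0% of all Chgb UMIs. The 2 granins were thus found in the same small class in each of the 6 samples.

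**Figure D1:**
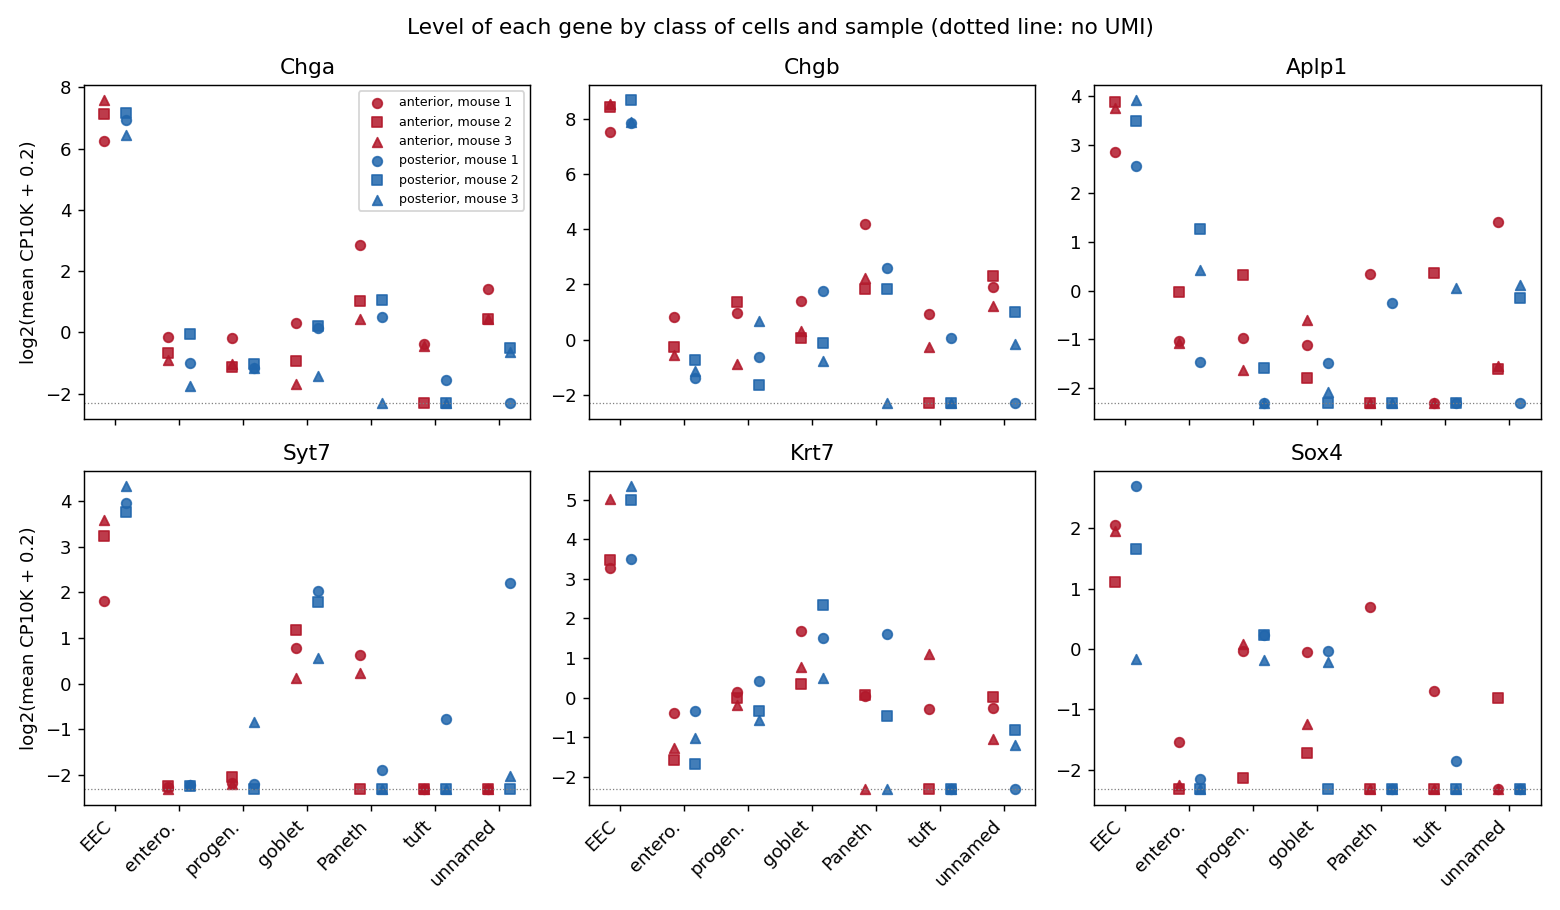
Level of each gene as log2(mean CP10K + 0.2) on the vertical axis, for each class of cells on the horizontal axis; each symbol is 1 sample, with shape for the mouse and colour for the region. EEC-like cells stand highest for Chga (76.4 to 191 CP10K) and Chgb (184 to 415 CP10K) in every sample, while goblet-like cells hold an intermediate level of Syt7 and Krt7 and posterior mouse 3 has EEC-like Sox4 at 0.693 CP10K.

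Some granin UMIs were found outside the EEC-like class. At least 1 Chga UMI was found in 54 of 74 anterior and 28 of 43 posterior EEC-like cells, against 71 of 203 and 49 of 246 enterocyte-like cells (median depth 1601 to 7545.5 UMIs in EEC-like and 8562 to 12553.5 UMIs in enterocyte-like cells). When every cell was thinned to 1000 UMIs, 41 of 71 anterior and 25 of 36 posterior EEC-like cells kept a Chga UMI, against 7 of 203 and 9 of 245 enterocyte-like cells; 3 and 7 EEC-like cells were too shallow. For Chgb the thinned counts were 61 of 71 and 30 of 36 EEC-like cells, against 19 of 203 and 5 of 245 enterocyte-like cells. The origin of the granin UMIs in enterocyte-like cells was not tested, and a granin UMI in a single cell is not read as expression by that cell.

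Aplp1, the amyloid precursor-like gene, was also highest in EEC-like cells in every sample, at 6.98, 14.6 and 13.2 CP10K in the anterior and 5.69, 11.01 and 14.9 CP10K in the posterior samples. The anterior mean was 11.6 ± 4.06 CP10K and the posterior mean 10.5 ± 4.63 CP10K (SD, n = 3 each). Summed over the 3 mice, EEC-like cells held 58.3% of the anterior and 49.4% of the posterior Aplp1 UMIs, and enterocyte-like cells 20.8% and 41.4%. The posterior sum describes no single mouse: EEC-like cells held 85.1% of these UMIs in mouse 1, but 27.6% in mouse 2 and 28.3% in mouse 3. Anterior shares by mouse were 75.3%, 41.6% and 53.8%. Enterocyte-like cells of posterior mice 2 and 3 had 2.19 and 1.13 CP10K of Aplp1, and those of posterior mouse 1 had 0.162 CP10K. Crypt progenitor-like cells of the posterior samples held 2 Aplp1 UMIs in all, in 1 sample. The difference between crypt progenitor-like and enterocyte-like cells in the posterior samples did not pass the test (log2 difference -2.15, 95% interval -3.67 to -0.63; limma adjusted p = 0.0804; 7.63% of genes called in either direction).

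Syt7, the calcium sensor, was split between EEC-like and goblet-like cells. In EEC-like cells it stood at 3.31, 9.30 and 11.9 CP10K in the anterior and 15.5, 13.4 and 20.0 CP10K in the posterior samples. In goblet-like cells it stood at 1.51, 2.04 and 0.892 CP10K in the anterior and 3.90, 3.25 and 1.28 CP10K in the posterior samples. Enterocyte-like cells held only 2 anterior and 4 posterior Syt7 UMIs, at most 0.0124 CP10K in any sample.

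Summed over the 3 mice, the numerous goblet-like cells held 40% of the anterior and 62.9% of the posterior Syt7 UMIs, against 54.2% and 33.1% in EEC-like cells. Mouse 1 supplied 97 of the 124 anterior and 292 of the 331 posterior goblet-like ones. The EEC-like share was 36.1%, 76.9% and 75% in anterior and 26.7%, 62.7% and 46.9% in posterior mice 1, 2 and 3. In posterior mice 2 and 3 goblet-like cells held 27 and 12 Syt7 UMIs, fewer than the 47 and 15 of EEC-like cells. Goblet-like cells had higher Syt7 than enterocyte-like cells by 2.97 ± 0.55 (SE) in log2 in the anterior (adjusted p = 0.000682) and 3.70 ± 0.67 in the posterior samples (adjusted p = 0.00225; limma over all genes). They were also above crypt progenitor-like cells, by 2.84 (adjusted p = 0.000637) and 3.26 (adjusted p = 0.00311; limma). In these 4 contrasts 5.34% and 2.6% of all genes were called higher in goblet-like than in enterocyte-like cells, and 7% and 5.45% higher than in crypt progenitor-like cells. The goblet-like Syt7 UMIs did not follow the granins: mouse 1 goblet-like cells held 97 Syt7 UMIs beside 176 Chgb UMIs in the anterior and 292 beside 98 in the posterior sample, whereas its EEC-like cells held 61 beside 3977 and 112 beside 2936. EEC-like cells remained above goblet-like cells for Syt7 (log2 difference 2.20, adjusted p = 0.0115, and 2.56, adjusted p = 0.043; limma).

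Krt7, the simple-epithelial keratin, stood at 9.54, 10.9 and 32.3 CP10K in anterior and 11.02, 31.4 and 40.4 CP10K in posterior EEC-like cells, with mouse 1 lowest in both regions. Goblet-like cells followed, with 3.03, 1.06 and 1.52 CP10K in the anterior and 2.62, 4.86 and 1.20 CP10K in the posterior samples. Krt7 in goblet-like cells was above that in enterocyte-like cells (log2 difference 2.02, adjusted p = 0.00914, anterior, and 2.46, adjusted p = 0.037, posterior; limma). Against crypt progenitor-like cells the goblet-like difference did not pass (0.96, 95% interval -0.11 to 2.03, adjusted p = 0.178, and 1.60, 95% interval 0.17 to 3.03, adjusted p = 0.11; limma). Summed over the 3 mice, EEC-like cells held 39.2% of the anterior and 38.1% of the posterior Krt7 UMIs and goblet-like cells 30.8% and 34.4%. Mouse 1 supplied 252 of the 334 anterior and 299 of the 359 posterior goblet-like ones. Only in mouse 1 did goblet-like cells hold more of them than EEC-like cells (219 and 222). The EEC-like share was 35.3%, 28.7% and 53.6% in anterior and 32.4%, 50.3% and 47.6% in posterior mice 1, 2 and 3. Of goblet markers, 16 of 17 were measured; summed over them, EEC-like cells had 173 to 214 CP10K in the anterior and 148 to 203 CP10K in the posterior samples, against 2871 to 4635 CP10K in goblet-like and 38.6 to 84.5 CP10K in enterocyte-like cells. The part of these transcripts in the EEC-like levels of Syt7 and Krt7 was not tested.

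Sox4, the progenitor transcription factor, had the lowest mean of the 6 in EEC-like cells of both regions, 3.19 ± 1.09 CP10K in the anterior and 3.30 ± 2.81 CP10K in the posterior samples (SD, n = 3 each). Its levels were 3.95, 1.95 and 3.68 CP10K in the anterior and 6.28, 2.93 and 0.693 CP10K in the posterior samples; in mouse 1 they lay above those of Syt7 in the anterior and of Aplp1 in the posterior sample. Crypt progenitor-like cells came next, at 0.776, 0.0270 and 0.858 CP10K in the anterior and 0.977, 0.973 and 0.684 CP10K in the posterior samples. In the posterior samples the 2 classes overlapped, since the EEC-like value of mouse 3 rests on 1 UMI in 1 of 4 cells. Few cells carried the anterior values too: Sox4 UMIs were found in 17 of 61, 1 of 7 and 2 of 6 EEC-like cells of mice 1, 2 and 3. Summed over the 3 mice, EEC-like cells held 36.4% of the anterior and 49.1% of the posterior Sox4 UMIs, and crypt progenitor-like cells 35.0% and 37.4%. Mouse 1 supplied 165 of the 171 posterior EEC-like ones. Sox4 was nearly absent from enterocyte-like cells, with 13 anterior and 5 posterior UMIs.

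**Figure D2:**
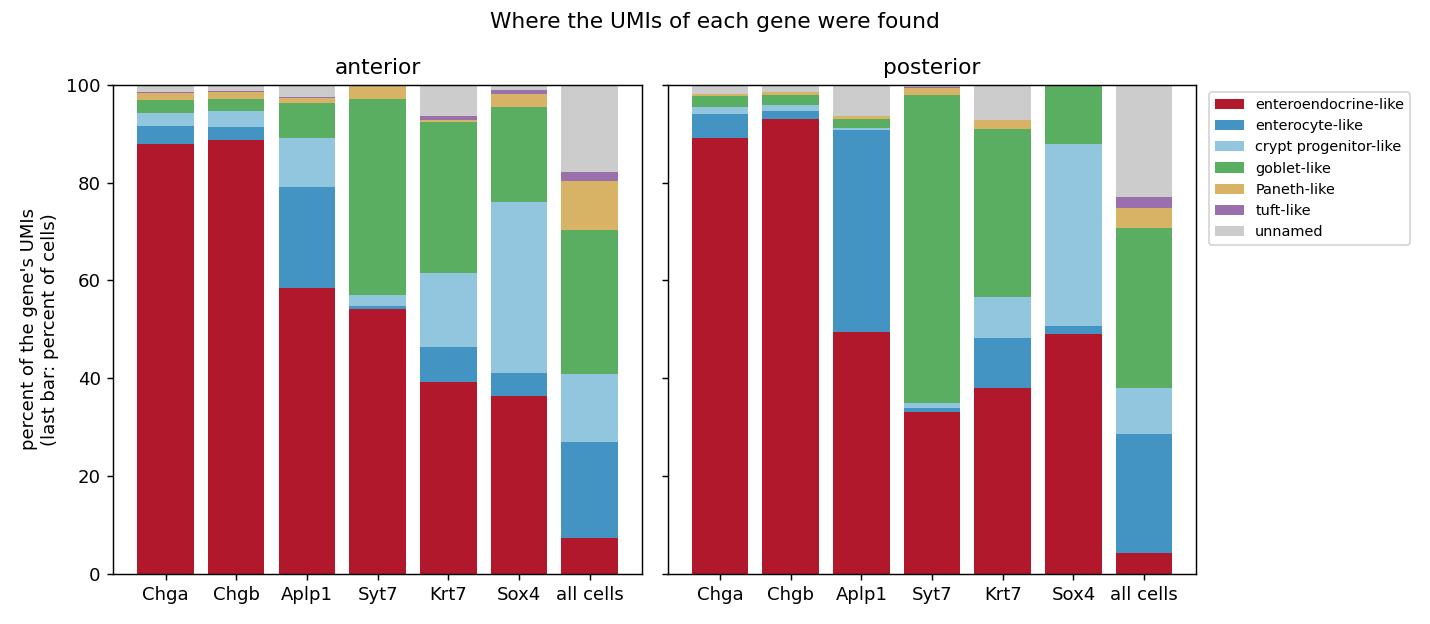
Percent of the UMIs of each gene found in each class of cells, summed over the 3 mice of a region; the last bar of each panel gives the percent of all cells in the class. EEC-like cells, 7.20% of anterior and 4.24% of posterior cells, held 88.0% to 93.0% of granin UMIs, whereas goblet-like cells held 40% and 62.9% of Syt7 UMIs and enterocyte-like cells 41.4% of posterior Aplp1 UMIs. The sums hide differences between mice: the posterior EEC-like share was 26.7%, 62.7% and 46.9% for Syt7 and 85.1%, 27.6% and 28.3% for Aplp1 in mice 1, 2 and 3.

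Set against the mean of enterocyte-like, crypt progenitor-like and goblet-like cells, all 6 genes were called higher in EEC-like cells in both regions. The comparison asks how far these genes are higher in the EEC-like class when they take no part in the clustering. They were chosen with earlier results of these data known, so the number of calls is no independent test of that choice. Levels were compared as log2(mean CP10K + 0.2) per class and sample, with the sample as a block, and tested with limma over all genes; a call is a Benjamini-Hochberg adjusted p under 0.05. In the anterior samples 4.86% of 5803 genes were called higher, and in the posterior samples 1.8% of 5227. Chgb and Chga had log2 differences of 7.82 ± 0.42 (SE) and 7.69 ± 0.42 in the anterior (adjusted p = 4.8e-12 and 6.19e-12) and of 8.60 ± 0.57 and 7.66 ± 0.47 in the posterior samples (adjusted p = 1.47e-08 and 6.62e-09; limma). Aplp1 was higher by 4.38 and 4.65, Syt7 by 4.13 and 4.88, and Krt7 by 3.99 and 4.52, with the anterior value first in each pair and limma adjusted p at or below 0.000174. Sox4 was higher by 2.95 in the anterior (adjusted p = 0.000165) and by 2.40 in the posterior samples (adjusted p = 0.0422; limma). The median over the 6 genes was 4.255 and 4.76, against -0.15 and -0.34 over all genes tested. These differences are on the log2(value + 0.2) scale, which understates the change of genes near 0 in the other classes, as Syt7 is in enterocyte-like cells.

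Taken class by class, 34 of the 36 contrasts of EEC-like cells with a single class were called higher. Of all genes, 4.2%, 4.74% and 6.69% were called higher in anterior EEC-like cells than in enterocyte-like, crypt progenitor-like and goblet-like cells, and 2.16%, 3.31% and 0.842% in posterior ones. The 2 that did not pass were both posterior Sox4, with a log2 difference of 1.30 over crypt progenitor-like cells (95% interval -0.32 to 2.92, adjusted p = 0.271) and of 2.25 over goblet-like cells (95% interval 0.63 to 3.87, adjusted p = 0.125; limma). In the anterior samples Sox4 passed over both, by 2.40 (adjusted p = 0.00509) and 2.71 (adjusted p = 0.0024; limma). The posterior call of Sox4 over the mean of the 3 classes was lost without posterior mouse 1 (1.93, adjusted p = 0.171) and without posterior mouse 2 (2.04, adjusted p = 0.149; limma). Only higher calls are read here, since on simulated data a class with few cells received too many lower calls.

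**Figure D3:**
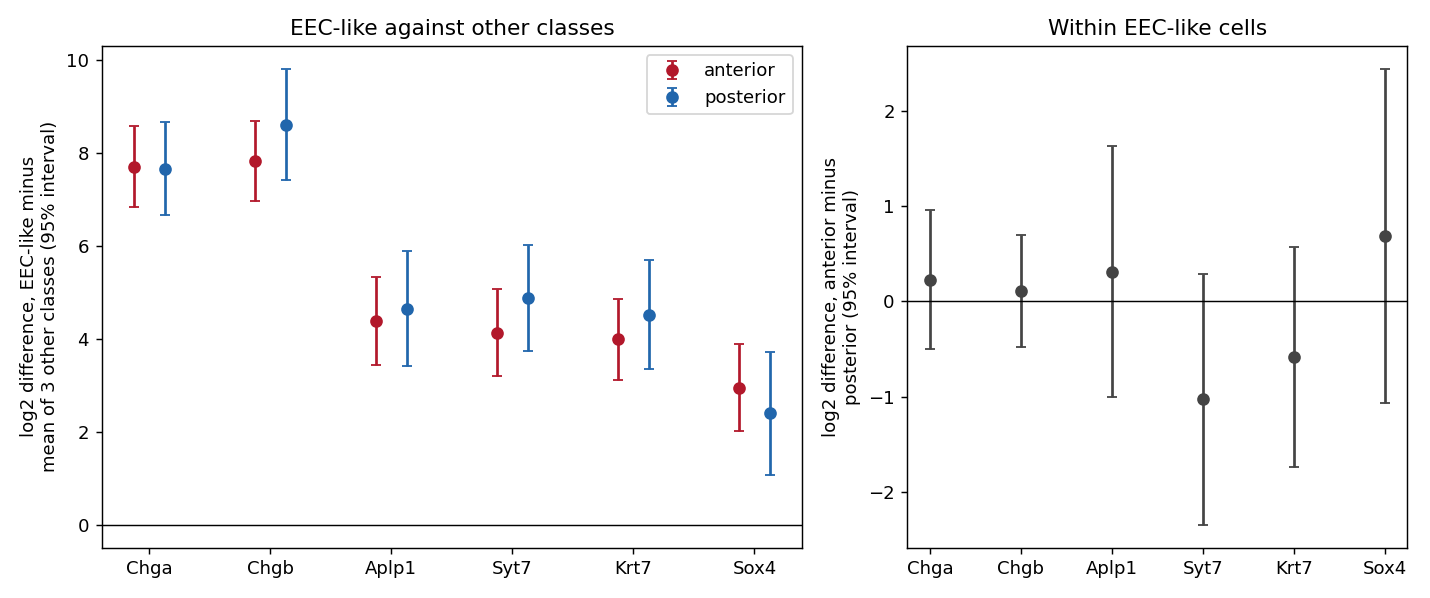
Left, log2 difference in mean CP10K between EEC-like cells and the mean of the 3 other classes for each gene, anterior and posterior; right, log2 difference between anterior and posterior EEC-like cells. Points are limma estimates and bars 95% intervals (n = 3 mice per region): all 12 intervals on the left lie above 0, from 2.40 for posterior Sox4 to 8.60 for posterior Chgb, and all 6 on the right include 0.

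The genes that work beside these members were described from 5 lists. Of the granin and prohormone processing list, 11 of 21 genes were tested in the anterior samples and 7 were higher in EEC-like cells, 5 of them besides Chga and Chgb. Pcsk1n, a granin-like inhibitor of prohormone convertase, was higher by 5.69 in log2 (adjusted p = 4e-08) and stood at 13.8, 4.32 and 29.6 CP10K in mice 1, 2 and 3. Scg5, the chaperone 7B2, was higher by 5.27 (adjusted p = 3.38e-07), the granule protein gene Resp18 by 5.11 (adjusted p = 4e-08) and Cpe, the peptide-trimming carboxypeptidase E, by 4.63 (adjusted p = 7.3e-07; limma). Scg2, secretogranin II, was higher by 4.04 (adjusted p = 0.000275; limma) but uneven, at 11.9, 24.9 and 0.155 CP10K. Cpd, Furin, Sec11c and Ssr4, which also act in cells outside the endocrine lineage, were not called. Of the same list 6 genes were tested in the posterior samples, and only Chga and Chgb were called higher. The median log2 difference of the list without members was 4.04 in the anterior and 0.38 in the posterior samples, where the list held other genes, against -0.15 and -0.34 over all genes tested.

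Of the regulated exocytosis list, 11 of 32 genes were tested in the anterior samples and 4 were higher. These were Syt7, the complexin gene Cplx2 (4.40, adjusted p = 1.41e-07), the vesicular monoamine transporter gene Slc18a1 (4.25, adjusted p = 2.63e-06) and the vesicle fusion gene Vamp2 (1.38, adjusted p = 0.0497; limma). In the posterior samples 9 were tested, and Syt7 and the vesicle membrane gene Scamp5 were higher (Scamp5 2.23, adjusted p = 0.0432; limma). Vamp2 did not pass there (1.09, adjusted p = 0.208; limma). The median without Syt7 was 0.87 in the anterior and 0.74 in the posterior samples.

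Of the amyloid precursor family and its partners, 8 of 14 genes were tested in the anterior and 7 in the posterior samples. App itself was higher in anterior EEC-like cells (1.76, adjusted p = 0.0193) and not called in posterior ones (0.15, adjusted p = 0.904; limma). Aplp2, the third family member, was not called in either (-1.45, adjusted p = 0.0799, and -0.70, adjusted p = 0.504; limma), which left Aplp1 as the family member called in both regions. Medians without Aplp1 were 0.36 and -0.52. App was at 1.20, 5.92 and 3.85 CP10K in anterior and 0.948, 1.14 and 2.29 CP10K in posterior EEC-like cells.

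Among simple-epithelial keratins, 6 of 6 were tested in the anterior and 5 in the posterior samples, and Krt7 and Krt20 were higher in both. Krt20, a keratin of differentiated gut epithelium, was higher by 1.67 (adjusted p = 0.00972) and 1.88 (adjusted p = 0.0204; limma). Krt8, Krt18 and Krt19, the general intestinal keratins, differed by 0.21 to 0.98 and were not called. Of 29 listed endocrine transcription factors 3 were tested in each region, and of Sox4, Sox9 and Atoh1 only Sox4 was higher. Other factors on that list, such as Neurog3 and Neurod1, were not analysed here. The lists were drawn up with earlier results of these data known, and App, Krt20, Vamp2 and Scamp5 were among genes that could enter the clustering.

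Hormone transcripts gave a second way to group cells, without clusters. It is not independent of the EEC-like class, since Sct, Cck, Gip and Nts were 4 of the 5 markers that named that class. A cell was called hormone-positive if it held at least 3 UMIs, and at least 10 CP10K, of any of the hormone-type genes measured in its region (Sct, Cck, Gip, Nts, Sst, Ghrl, Tac1 and the serotonin-synthesis gene Tph1 in the anterior table; Sct, Cck, Gip, Nts and Pyy in the posterior table). Chga stood at 16.2, 14.6 and 28.02 CP10K in hormone-positive, against 0.708, 0.711 and 0.773 CP10K in hormone-negative anterior cells. In the posterior samples it stood at 50.0, 27.0 and 9.95 CP10K in hormone-positive, against 0.446, 0.612 and 0.239 CP10K in hormone-negative cells. The groups did not overlap for either granin, since Chgb was at 27.0 to 96.2 CP10K in all hormone-positive and at 0.521 to 1.96 CP10K in all hormone-negative groups. How many of all genes separated in this way is not given here.

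Of the 6 genes, 5 were called higher in anterior and 4 in posterior hormone-positive cells; 0.501% of 5787 and 0.278% of 5036 genes were called higher. Chgb was higher by 4.46 (adjusted p = 1.6e-06) and 5.52 (adjusted p = 1.68e-09) and Chga by 4.35 (adjusted p = 4.17e-06) and 5.29 (adjusted p = 2.91e-07; limma, anterior and then posterior). Syt7 was higher by 2.48 (adjusted p = 0.0323) and 2.59 (adjusted p = 0.0153; limma). Krt7 was called by a narrow margin in the anterior (1.81, adjusted p = 0.0499994) and more clearly in the posterior samples (2.54, adjusted p = 0.00517; limma). Aplp1 passed in the anterior (2.13, adjusted p = 0.0318) and not in the posterior samples (1.91, adjusted p = 0.165; limma). Sox4 passed in neither (1.28, adjusted p = 0.209, and 1.62, adjusted p = 0.352; limma). Without anterior mouse 3 only 2 of the 6 were called in the anterior samples.

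Most hormone-positive cells were not EEC-like. Of 330, 69 and 42 hormone-positive anterior cells, 270, 62 and 36 lay outside the EEC-like class, and in anterior mouse 1 alone 276 of 568 cells were Gip-positive. Of 79, 44 and 36 hormone-positive posterior cells, 51, 36 and 32 lay outside it. In hormone-positive cells outside the EEC-like class Chga was at 2.49, 0.624 and 0.815 CP10K in the anterior and 2.96, 1.07 and 0.438 CP10K in the posterior samples. Chgb there was at 6.22, 2.62 and 0.860 CP10K and at 7.745, 0.718 and 0.538 CP10K. These levels lay far below those of EEC-like cells in the same samples.

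**Figure D4:**
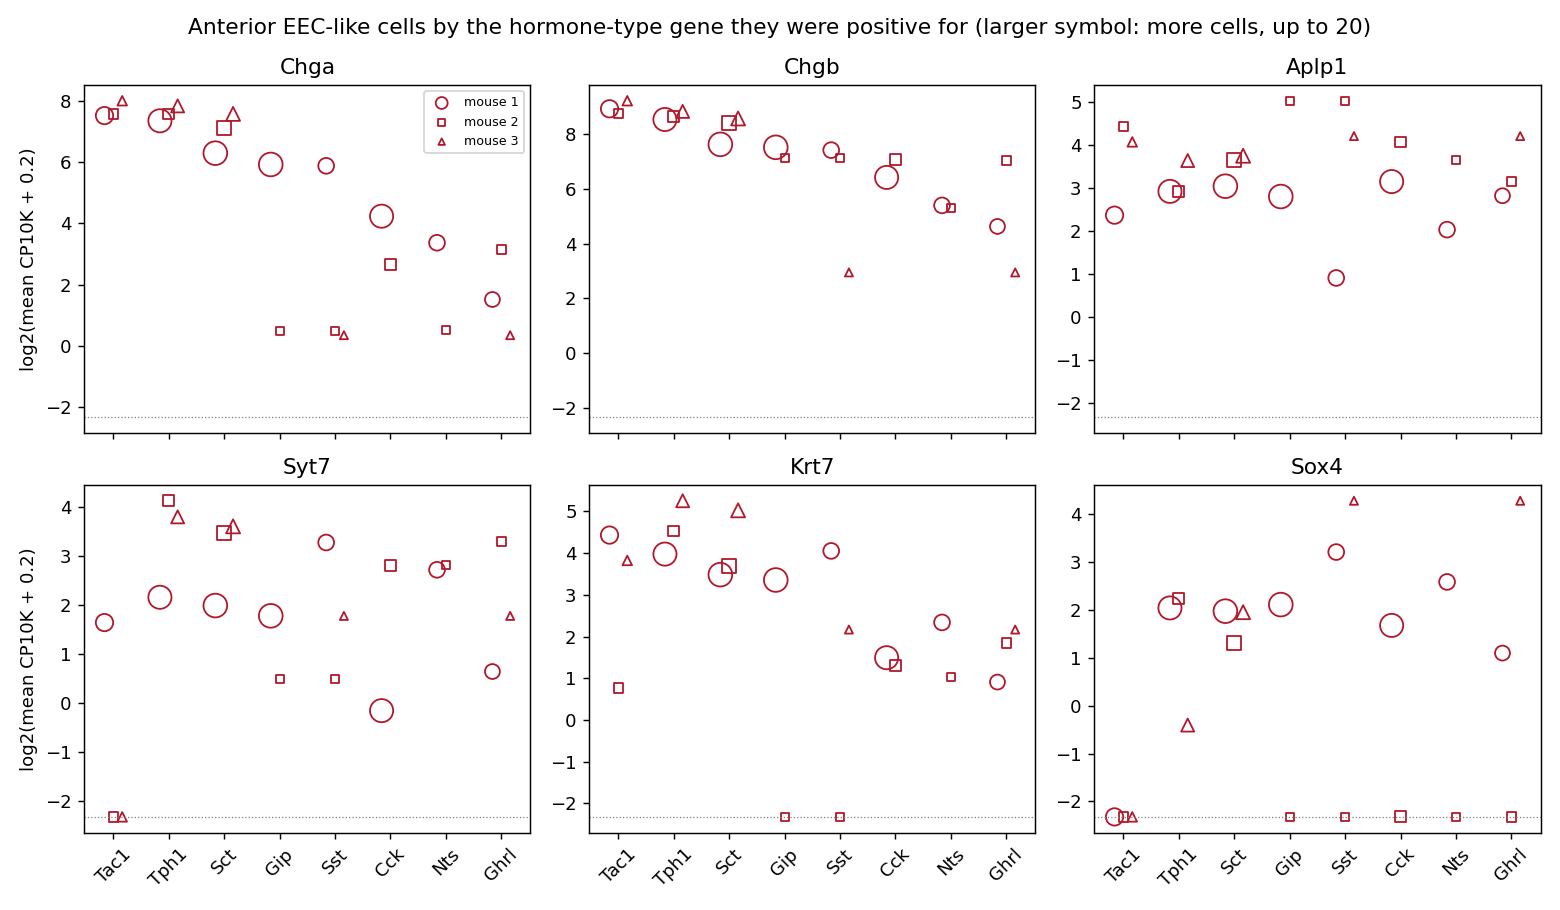
Mean CP10K of each gene in EEC-like cells positive for each hormone-type gene in the anterior samples, 1 symbol per mouse, larger for more cells, on a log2(mean CP10K + 0.2) axis; groups share cells. Chga is highest in Tac1-positive (184 to 258 CP10K) and Tph1-positive cells (164 to 229 CP10K) and low in Ghrl-positive cells (1.07 to 8.64 CP10K).

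Within the EEC-like class the granins differed by hormone. Anterior Tph1-positive cells, the serotonin-making type (19, 3 and 5 cells of mice 1, 2 and 3), had Chga at 164, 191 and 229 CP10K, against 37.1, 99.3 and 1.07 CP10K in the other EEC-like cells (42, 4 and 1 cells). Cells positive for Tac1, the substance P gene, had 184, 190 and 258 CP10K. They are largely the same cells, since 10 of the 14 Tac1-positive cells were also Tph1-positive. By this rule 63 of 74 anterior EEC-like cells were positive for 2 or more hormone-type genes. That count includes Gip, for which 276 cells of anterior mouse 1 were positive, only 35 of them EEC-like, and mouse 1 supplied 61 of the 74 cells. The part of Gip UMIs from outside the cell in this count was not tested. Cells positive for Ghrl, the ghrelin gene, had 2.66, 8.64 and 1.07 CP10K (7, 2 and 1 cells). Chga was also low in cells positive for the neurotensin gene Nts, at 10.1 and 1.24 CP10K in the 2 anterior mice that had any and 6.09, 6.43 and 2.88 CP10K in the posterior ones.

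Cck-positive anterior cells, which make cholecystokinin, had Chga at 18.7 and 6.16 CP10K in mice 1 and 2, against 103 and 238 CP10K in the Cck-negative EEC-like cells of the same mice. The posterior values were less even, with 118, 12.9 and 5.76 CP10K in 7, 1 and 1 Cck-positive cells. Chgb was at 84.9 and 133 CP10K in Cck-positive, against 229 and 505 CP10K in Cck-negative anterior cells. Nts-positive anterior cells had Chgb at 41.8 and 39.0 CP10K.

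At the threshold of 3 UMIs only Cck and Tph1 of 8 hormone groups could be fitted, each in mice 1 and 2 with 1 residual degree of freedom, so that the error leans on the spread pooled over genes. The Cck-positive difference was -3.84 ± 0.42 (SE) for Chga (adjusted p = 6.97e-17) and -1.68 ± 0.22 for Chgb (adjusted p = 5.01e-11; limma), and 0.35% of 4853 genes were called. The simulated data covered EEC-like cells against the other classes, where the smaller class tended to low values, and no split by hormone was simulated. The Cck-positive cells were the smaller group in both mice (19 against 42 and 3 against 4 cells). So were the Tph1-positive cells, with the same numbers. The effect of group size on these differences was not tested. The Tph1-positive difference was 1.54 ± 0.35 for Chga (adjusted p = 0.00592) and 1.13 ± 0.26 for Chgb (adjusted p = 0.00664; limma), with 0.188% of 4786 genes called. No other member was called in either. Krt7 was at 15.5, 22.9 and 37.9 CP10K in Tph1-positive, against 6.82, 1.99 and 4.29 CP10K in Tph1-negative cells of mice 1, 2 and 3. The difference was not called (2.28, limma adjusted p = 0.61 over mice 1 and 2). The Tph1-negative value of mouse 3 rests on 1 cell, and the share of all genes higher in all 3 mice is not given here. The 4 calls of the granins depended on the settings, and with no filter on low values none passed. With a threshold of 1 UMI the Cck-positive difference of Chga was -1.27 and no longer called (adjusted p = 0.0841; limma), while that of Chgb was -1.17 (adjusted p = 0.000336; limma). The Tph1-positive calls were lost in 4 of 7 alternatives for each granin. Sox4 had no UMI in any of the 14 Tac1-positive anterior cells.

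**Figure D5:**
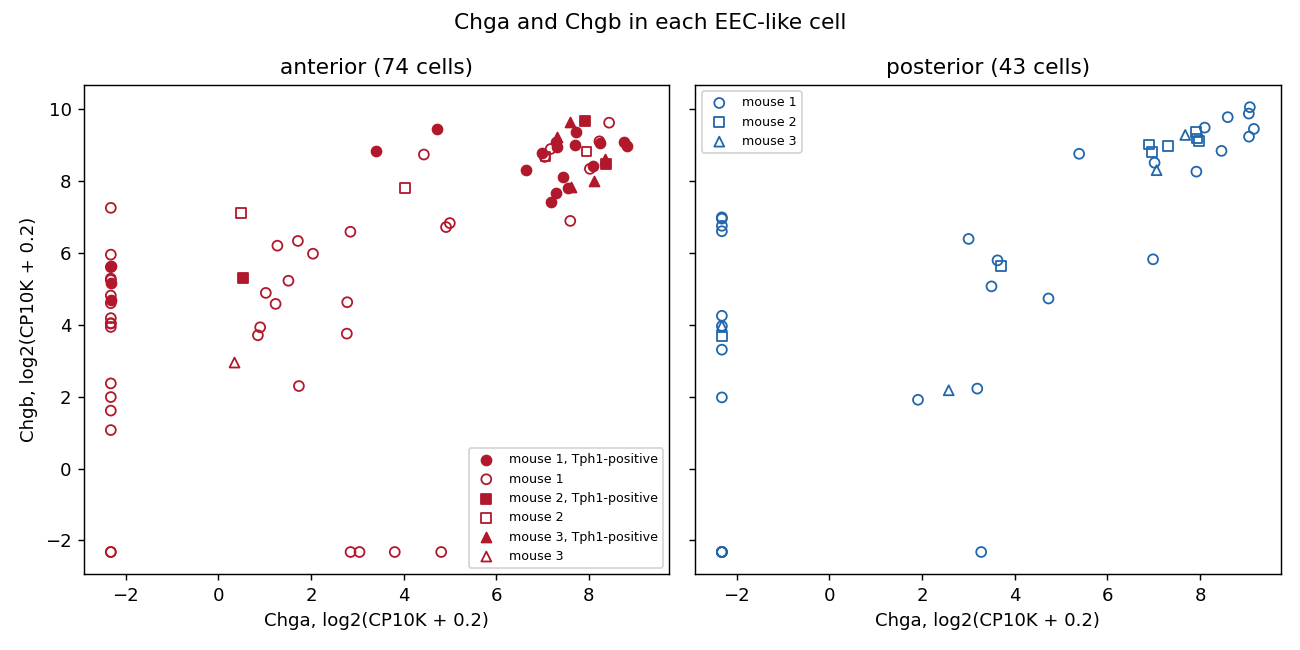
Chgb against Chga in single EEC-like cells, both as log2(CP10K + 0.2), anterior cells left and posterior cells right, with shape for the mouse and filled symbols for Tph1-positive anterior cells. Cells run from no Chga UMI (20 of 74 and 15 of 43) to 449 and 573 CP10K, and Tph1-positive anterior cells are mostly at the upper end.

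Single EEC-like cells ranged widely. Chga was at 100 CP10K or more in 28 of 74 anterior and 18 of 43 posterior cells and had no UMI in 20 and 15. Chgb was at 100 CP10K or more in 37 and 21 cells and had no UMI in 6 and 6. In the anterior samples 20 of 27 Tph1-positive and 8 of 47 Tph1-negative cells had Chga at 100 CP10K or more. The highest single-cell levels were 55.2 and 58.7 CP10K for Aplp1, 44.8 and 67.2 CP10K for Syt7, 105 and 99.9 CP10K for Krt7 and 45.8 and 70.9 CP10K for Sox4. UMIs of all 6 genes were present in 6 anterior and 3 posterior cells, and of none in 1 and 1.

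As a description over 74 anterior and 43 posterior cells, which share libraries and differ in depth, Pearson's r was 0.72 and 0.79 between Chga and Chgb and 0.57 and 0.68 between Chga and Krt7. The r with Chga was lower for Syt7 (0.35 and 0.13), Aplp1 (-0.05 and 0.12) and Sox4 (-0.01 and 0.21). Aplp1 had r of 0.48 and 0.51 with the total UMIs of the cell.

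No member was called between anterior and posterior EEC-like cells, where 0.0882% of 4536 genes were called and 174 had an unadjusted p under 0.05 (limma). The anterior minus posterior difference was 0.23 for Chga (95% interval -0.50 to 0.96) and 0.11 for Chgb (95% interval -0.48 to 0.70). It was 0.31 for Aplp1 (95% interval -1.001 to 1.63), -0.58 for Krt7 (95% interval -1.73 to 0.57) and 0.69 for Sox4 (95% interval -1.07 to 2.44). Syt7 had the lowest p of the 6, with a difference of -1.03 (95% interval -2.34 to 0.29, unadjusted p = 0.126, adjusted p = 0.974; limma). Its groups did not overlap, since the highest anterior sample (11.9 CP10K) was below the lowest posterior one (13.4 CP10K). An exact test of 3 against 3 samples cannot give a p below 0.1, and the share of all genes that separated likewise is not given here. Within mice, both Syt7 and Krt7 were lower in the anterior than in the posterior sample in 3 of 3 pairs, again without the share of all genes that did so. Chga, Chgb, Aplp1 and Sox4 went both ways. No difference between regions is read from these directions, since so few pairs can also go 1 way for a gene without a difference. With the mouse as replicate block the differences were -1.03 ± 0.59 (SE, adjusted p = 0.85) for Syt7 and -0.58 ± 0.49 (adjusted p = 0.855) for Krt7 (limma). Differences inside these intervals are not excluded, and each sample of mice 2 and 3 held only 4 to 8 EEC-like cells.

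Whether the excess in EEC-like cells over the other classes itself differed between regions was tested as an interaction, and 0 of 6 members were called (0.171% of 5270 genes called; lowest unadjusted p of a member 0.255; limma). Enterocyte-like cells came mostly from other clusters in mouse 1 than in anterior and posterior mice 2 and 3, which touches this comparison. Plates of mouse 1 gave Chga at 64.4 and 89.8 CP10K in the anterior and at 152, 130 and 10.4 CP10K in the posterior sample, the last from 4 cells.

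Over the 24 class and sample points, the genes most like each member were named from 5270 genes by Pearson's r, with no p since points of a sample share an animal. Chga was most like Chgb (0.97), Reg4 (0.95), Sct (0.94), Asph (0.89) and Krt7 (0.89). Chgb was most like Chga, Reg4 (0.96), Sct (0.94), Krt7 (0.90) and Itm2c (0.90). Aplp1 followed Chgb (0.89), Chga (0.88), Reg4 (0.86), Pkm (0.84) and Sqstm1 (0.84). Syt7 was most like Hepacam2 (0.93), Sct (0.93), Krt7 (0.92), Selenom (0.91) and Chd4 (0.88), and Krt7 most like Sct (0.93), Syt7 (0.92), Chgb, Chga and Reg4. Sox4 was most like Tspan1 (0.83), Ptms (0.82), Cd24a (0.82), Agap3 (0.80) and Itpr3 (0.79). No other member was among its 5, but Chga (0.76) and Chgb (0.75) came shortly after them.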

How the data were processed

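STAR 2.6.1b, cutadapt 1.18, UMI-tools 1.0.0, bcl2fastq and R 3.5.1 are listed, without their roles, in the submitters' processing notes, as is the GRCm38 build. The authors deposited 1 table per region of log2 values, corrected per gene; filters before deposit are not given in the sources used here. UMI counts were recovered from them (whole at a tolerance of 0.01) and scaled to CP10K, in 6839 anterior and 5831 posterior genes. Cells were clustered with scanpy 1.11.5 on 1500 variable genes of both tables (25 principal components, 15 neighbours, Leiden resolution 1) without the 6 members, and clusters were named from at least 3 raised markers; a shallow cluster with none of its markers among its 10 leading genes stayed unnamed, a rule chosen after the clusters were seen. Cells were sorted singly into wells (3348 of them, 2043 cells in the tables), so no doublet caller was run; 0 cell names were shared by samples.

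Means of CP10K per class and sample with at least 3 cells were compared as log2(value + 0.2), keeping genes that averaged 0.2 CP10K or more, with limma 3.58.1 (eBayes with trend, Benjamini-Hochberg over all genes tested), with the sample as a block within regions. The fit was tested on simulated data. Shares of cells were also taken after thinning to 1000 UMIs. The same 3 mice gave both regions, so replicate numbers pair the samples by animal; deviations from the group means correlated by 0.217, 0.028 and 0.025 for mice 1, 2 and 3. The members and lists were chosen with earlier results of these data known. Named genes are the members, the called genes of each list (at most 6 per list and region) and the 5 genes most like each member. Gene positions are from GENCODE vM21 (GRCm38). Alternatives changed the pseudocount, filter, UMI summing, block, cell minimum, clustering, hormone threshold and left out each replicate.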

Additional observations from a re-analysis of the deposited data

How the results depend on the processing

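All 6 members were called higher in anterior EEC-like cells under 11 of 11 alternatives. In posterior cells 6 or 5 were; Sox4 was the one lost, with no replicate block (2.40, adjusted p = 0.0506), at Leiden resolution 2 (1.91, adjusted p = 0.119) and without posterior mouse 1 or 2 (limma). For hormone-positive cells the anterior count of 5 became 3 with a pseudocount of 0.05 CP10K, 2 with no replicate block, 2 with a threshold of 1 UMI and 2 to 5 when a replicate was left out. The posterior count of 4 became 2 with no replicate block, 2 with a threshold of 1 UMI and 3 to 4 when a replicate was left out. Within EEC-like cells the 4 calls became 1 with a pseudocount of 1 CP10K, 0 with no filter, 2 on summed UMIs and 1 with no replicate block; leaving out replicate 3, which did not enter these fits, gave 4, other omissions and a threshold of 10 UMIs could not be fitted. A threshold of 1 UMI allowed fits for Gip, Nts, Sst and Tac1 too and gave 5 of 36 calls; there the difference of Chga between Cck-positive and other cells shrank to -1.27 (adjusted p = 0.0841; limma; range over its 7 alternatives 4.87e-25 to 0.865), and the difference of Syt7 between Cck-positive and other cells turned to 2.62. Between regions 0 members were called with the mouse as replicate block, as in the other alternatives, and the interaction gave 0 in all 14.

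Several of these small differences turned sign, none of them called. Between regions, Chgb became -0.0158 and Sox4 -0.0927 with at least 5 cells per class, and Aplp1 -0.63 on summed UMIs; leaving out a replicate gave -0.0714 to 0.59 for Chga, -0.0852 to 0.44 for Chgb, -0.0657 to 0.69 for Aplp1 and -0.0927 to 1.34 for Sox4. In the interaction, Chga became -0.13 on summed UMIs, Aplp1 0.13 with a pseudocount of 1 CP10K, 0.0126 with at least 5 cells and 0.21 with all genes in the clustering, and Krt7 0.0910 with at least 5 cells; leaving out a replicate gave -0.44 to 0.83 for Chga, -0.66 to 0.0126 for Aplp1 and -1.28 to 0.0910 for Krt7. The cause was not tested. Depth and cell number limit genes with few UMIs per cell, such as Sox4, which had no UMI in 54 of 74 anterior and 28 of 43 posterior EEC-like cells, and the posterior samples of mice 2 and 3, with 8 and 4 EEC-like cells.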
